A study of Mus musculus with 8 samples.

Results

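Gapdh, Hprt1 and Actb were the reference genes of a bead assay of knee joint mRNA, the mRNAs that the study measured beside its targets in order to normalize them. They made up 3 of the 70 mRNAs of the series and were taken by name from the replicate tables. The first panel held 36 mRNAs, among them Gapdh, Hprt1 and Actb, and the second panel held another set of 36, among them Gapdh and Hprt1, which gave 5 reference rows of 72. The other 67 mRNAs were targets.

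Gapdh encodes an enzyme of glycolysis that is abundant in nearly all cells. Hprt1, an older name of Hprt, encodes the X-linked enzyme that salvages purines for nucleotide synthesis, and Actb encodes the actin of the non-muscle cytoskeleton. They are widely used as reference genes because every cell type makes them. A reference gene stands in for the amount of RNA that entered the assay, so a target read against it carries any difference of the reference gene between strains.

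The tissue came from 8 inbred strains of Mus musculus, each a single record in the labels. LG/J, MRL/MpJ and LGXSM-6 were labelled healers, SM/J, C57BL6/J and LGXSM-33 non-healers, and LGXSM-5 and LGXSM-35 intermediate healers, and the LGXSM lines are recombinant inbred lines bred from LG/J and SM/J. All mice of all strains had a full-thickness defect made in the knee cartilage at 8 weeks of age, and the joints were fixed and embedded in paraffin 16 weeks later, so there was no unoperated group. Homogenates were made from 25 sections of 5 µm per strain from 3 to 4 mice and combined bone, cartilage, meniscus, growth plate, capsule and synovium. In such a composite, fewer cells of a type and less mRNA per cell cannot be told apart. Of the cartilage markers, strain geometric means ran from 1539 to 9411 signal units for the collagen Col2a1, 1297 to 3126 for Comp, 66.5 to 852 for Acan, 21.4 to 76.5 for Sox9 and 16.5 to 95.2 for Mia1. Those of bone ran from 14483 to 28039 for Col1a1, 1067 to 4579 for Bglap1 and 109 to 672 for Runx2, and those of fat from 16.5 to 52.4 for Adipoq, 9.19 to 12.3 for Lep and 7.25 to 9.41 for Retn. Signals of different probes are not comparable, and Mia1, Sox9 and Adipoq lay in like ranges, so these values do not rank the tissues in the composite. LGXSM-6 had the highest mean of 8 of these 11 markers (Comp was highest in LGXSM-33, Lep and Retn in LGXSM-5), and SM/J had the lowest of 8 (Col2a1 was lowest in C57BL6/J, Adipoq and Lep in LG/J). These means hold all numbers of a strain, and those of SM/J include a stretch of low signals described below.

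In the QuantiGene Plex assay, mRNA in a homogenate is captured on coded beads, and branched DNA bound to each captured mRNA gives a fluorescent signal. The files give a series of numbered signals for each strain, called assay replicates here, on the log10 scale. The first panel had 76 of them, 8 each for LG/J and SM/J, 12 each for the lines LGXSM-6 and LGXSM-33, and 9 for every other strain, and the second panel had 78, with 9 for LG/J and SM/J also. The reader was set to a fixed number of beads for each mRNA, but the files give neither the number reached for a signal nor its mouse, plate, sex or day, so a single signal has no interval. The methods of the study speak of biological and technical replicates together, and every p-value over assay replicates therefore measures their spread, technical repeats included. A difference of 1 on the log10 scale is 10-fold, and signals of different mRNAs also depend on their probes, so levels of different genes are given but not ranked as amounts of mRNA.

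The data point first to how the assay replicates were arranged, because it sets the error of all that follows. Signals of consecutive numbers were nearly equal in groups of 3 and then stepped to another level. For Gapdh in the second panel, the median step between neighbouring numbers was 0.0267 inside a group of 3 (52 steps) and 0.271 from 1 group to the next (18 steps). The SD was 0.0389 inside these runs of 3 and 0.261 between the means of the 26 runs of the same strain. Hprt1 of that panel behaved alike, with median steps of 0.0332 and 0.320. In the first panel, over the 6 strains whose numbers divide by 3, Gapdh stepped by 0.0162 and 0.256, Hprt1 by 0.0482 and 0.361 and Actb by 0.0328 and 0.303. Single animals were measured in 3 repeats, and a strain had 3 to 4 mice. Strains with 9 numbers hold 3 runs and those with 12 hold 4, so the runs match these repeats in length and the mice in number, although the labels do not tie numbers to mice. P-values over assay replicates then count technical repeats as separate units. The shares of variance, the contrasts of strain pairs and the targets called in the deposited residuals are therefore also given over the means of runs of 3, a unit chosen after the data were seen. In the first panel these lack LG/J and SM/J, whose 8 numbers do not divide into runs of 3.

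**Figure D1:**
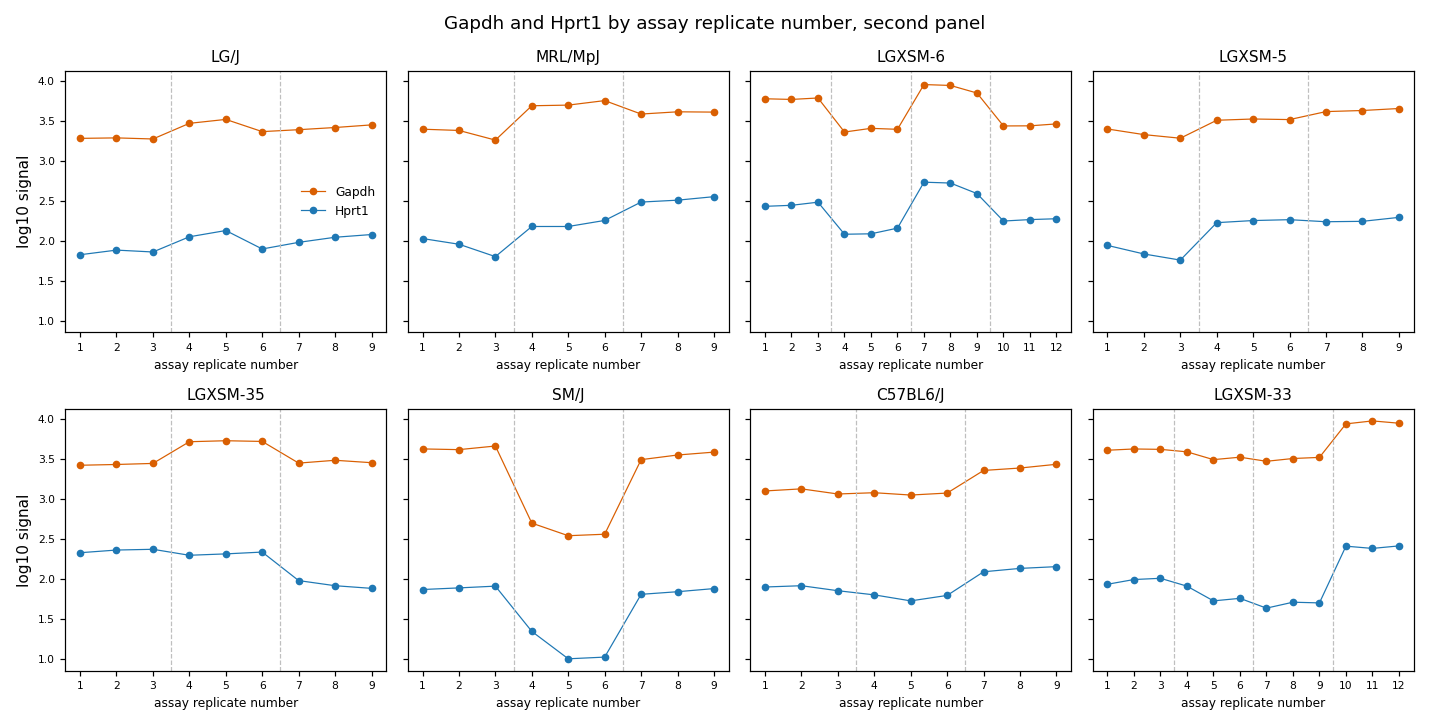
Log10 signal of Gapdh (orange) and Hprt1 (blue) against the assay replicate number in the second panel, 1 plot for each strain; dashed lines part the numbers into runs of 3. Signals hold a level within most runs and step between them, and in SM/J numbers 4 to 6 of both genes lie far under the others.

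Gapdh gave the highest signal of the reference genes in both panels. Its 76 signals in the first panel ran from 1471 to 26897 with a median of 12528, the level next under that of Col1a1 among the 36 mRNAs. In the healers the lowest, median and highest signals were 8610, 9698 and 12147 in LG/J, 10099.5, 15177 and 23725 in MRL/MpJ, and 10471, 17766 and 26897 in LGXSM-6. In the non-healers they were 1471, 13022 and 18843 in SM/J, 4618, 5504 and 10326 in C57BL6/J, and 11322, 16043 and 26523 in LGXSM-33. The intermediate healers LGXSM-5 (9723, 15565 and 16878) and LGXSM-35 (10667, 12458 and 23716) lay among the others. C57BL6/J was the low strain here, with signals that did not overlap those of LGXSM-6, LGXSM-33 or LGXSM-35, and it was the pair with LGXSM-33 that spanned the range of strain means, from 3.81 ± 0.15 (SD, n = 9) to 4.23 ± 0.12 (SD, n = 12), a 2.68-fold difference.

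Hprt1 gave signals about as low as those of many targets in the first panel. They ran there from 13 to 722.5 with a median of 130, rank 21 of 36, while its median of 111 in the second panel ranked 9 of 36. In the first panel LG/J had a lowest, median and highest signal of 80, 103 and 141, MRL/MpJ of 96, 246 and 336.5, and LGXSM-6 of 172, 322 and 722.5. SM/J had 13, 72.5 and 99, C57BL6/J 66.5, 84 and 171.5, and LGXSM-33 55, 99.2 and 370. The intermediate LGXSM-5 had 83, 172.5 and 266, and LGXSM-35 had 81, 273 and 368.5. LGXSM-6 was the high strain, above every signal of LG/J, C57BL6/J and SM/J, and its mean of 2.51 ± 0.25 (SD, n = 12) stood 7.57-fold over that of SM/J, 1.63 ± 0.41 (SD, n = 8).

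Actb ran from 524 to 24532 with a median of 6205 and followed Hprt1 more than Gapdh in its order of strains. The lowest, median and highest signals were 4081, 4736 and 6997 in LG/J, 4555, 12403 and 14668 in MRL/MpJ, and 9449, 14399.5 and 24532 in LGXSM-6. They were 524, 2606 and 3808.5 in SM/J, 3784.5, 5527 and 7674.5 in C57BL6/J, and 2122, 4220 and 14421 in LGXSM-33. LGXSM-5 had 3496.5, 7843 and 9631, and LGXSM-35 had 3946.5, 10188 and 12075. LGXSM-6 was again high, with no signal as low as any of LG/J, C57BL6/J or SM/J, and the means of LGXSM-6 (4.17 ± 0.17, SD, n = 12) and SM/J (3.21 ± 0.39, SD, n = 8) differed 9.12-fold. LGXSM-6 and SM/J, the highest and lowest strains of Hprt1 and Actb, were also the highest and lowest for 8 each of the 11 markers of cartilage, bone and fat, whose part in the levels of the reference genes was not tested. The marker means of SM/J include its low numbers described next, in which most targets were low too, and were not computed without them.

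Much of the low position of SM/J came from 1 stretch of its numbers. In the first panel, its numbers 3, 4 and 5 gave 1891, 1699 and 1471 for Gapdh against 11336 to 18843 in its other 5 numbers. For Hprt1 they gave 14, 15 and 13 against 66.5 to 99, and for Actb 584, 548.5 and 524 against 2245.5 to 3808.5. In the second panel numbers 4, 5 and 6 gave 497, 346 and 361 for Gapdh against 3091 to 4576.5, and 22, 10 and 10.5 for Hprt1 against 64 to 81. The reference genes were thus lower there by 9.15-fold for Gapdh, 5.98-fold for Hprt1 and 5.61-fold for Actb in the first panel, and by 9.76-fold and 5.53-fold for Gapdh and Hprt1 in the second. The targets moved with them, since 27 of 33 targets in the first panel and 26 of 34 in the second had all 3 of these signals under every other signal of SM/J, with a median drop of 3.08-fold and 2.55-fold. What these signals come from is not stated and was not tested.

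Without these numbers SM/J kept the lowest mean of the 8 strains for Hprt1 in both panels and for Actb, but ranked 3 from the top for Gapdh in both panels instead of 7. The span from the highest to the lowest strain mean became 3.87-fold for Hprt1 in the first panel, 3.23-fold for Hprt1 in the second and 4.78-fold for Actb, while that of Gapdh, from C57BL6/J to LGXSM-33, did not involve SM/J. Leaving out SM/J numbers is an alternative added after the data were seen.

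**Figure D2:**
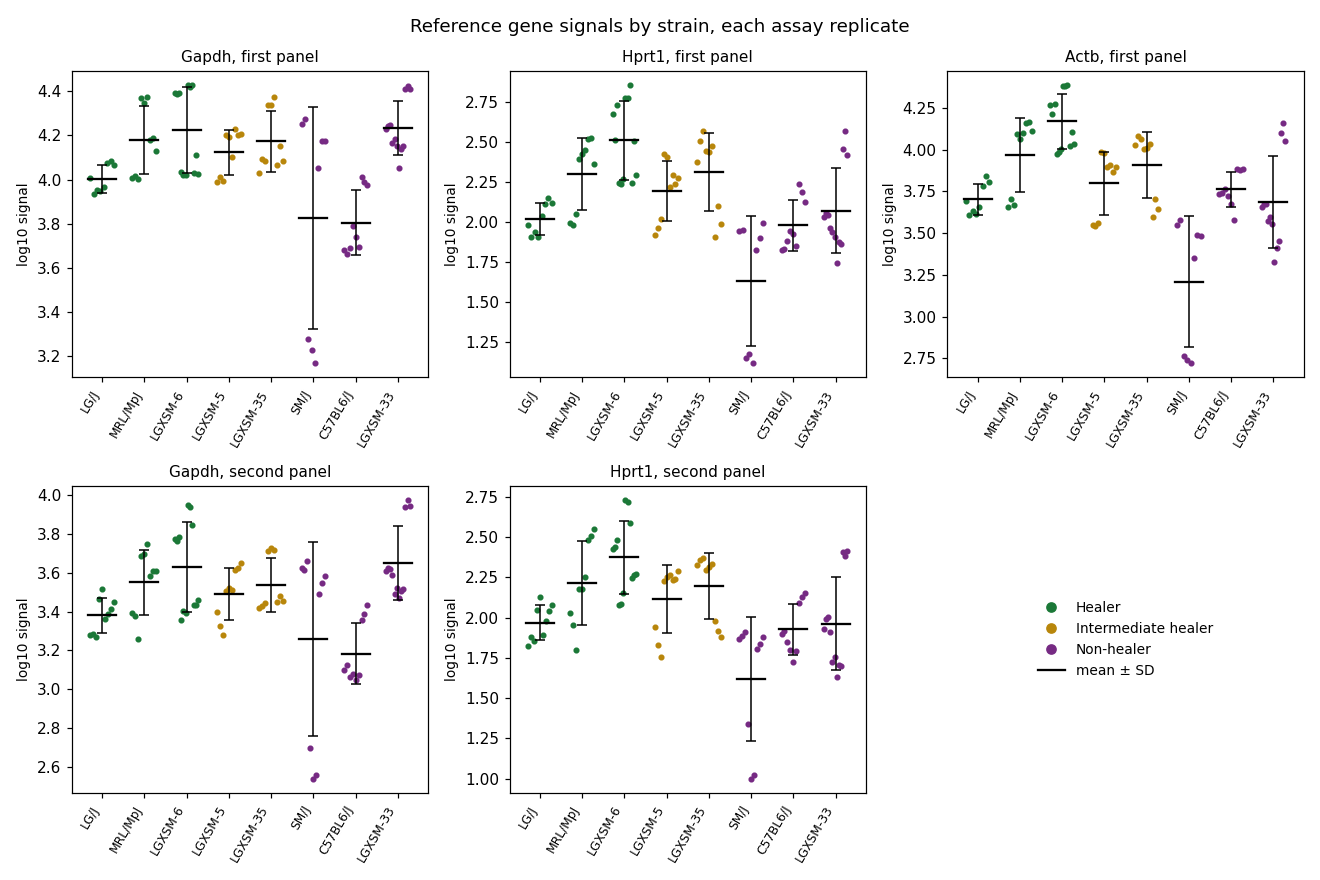
Log10 signal of each assay replicate by strain for the 5 reference rows, left to right in order of number, with the strain mean and SD in black and the healing label by color. C57BL6/J has the lowest and LGXSM-33 the highest mean of Gapdh in both panels, SM/J the lowest and LGXSM-6 the highest of Hprt1 and Actb, and SM/J holds 3 signals far under its others in each row.

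The levels of the reference genes differed between strains by more than the spread between assay replicates, in a test that nearly all mRNAs passed. The share of variance between strains, from a one-way model with strain as a random effect, was 36.4% ± 18.5 for Gapdh, 51.9% ± 14.0 for Hprt1 and 58.9% ± 18.1 for Actb in the first panel (jackknife SE over 8 strains). In the second panel it was 30.8% ± 17.3 for Gapdh and 44.5% ± 15.1 for Hprt1. All 5 rows passed the one-sided permutation test over assay replicates, with p adjusted over the 72 rows from 1.47e-05 to 6.97e-05, where 95.8% of all rows passed. The median share over all mRNAs was 54.4% in the first panel and 43.2% in the second, so Gapdh lay under the median in each, at place 5 from the lowest of 36 in the first. Without the low signals of SM/J, Gapdh and Hprt1 changed places in both panels, with 50.7% for Gapdh and 45.2% for Hprt1 in the first and 44.2% and 37.3% in the second, beside 51.3% for Actb, and all 5 rows still passed.

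Over the means of runs of 3, none of the 5 rows passed. The shares were 37.8% for Gapdh, 24.3% for Hprt1 and 27.0% for Actb in the first panel, which then lacked LG/J and SM/J (50.8%, 39.1% and 42.6% over all numbers of the same strains), and 10.9% for Gapdh and 29.9% for Hprt1 in the second, with p from the permutation test, adjusted over all rows, between 0.104 and 0.286. Before adjustment, p from that permutation test was 0.0472 for Gapdh in the first panel and 0.0588 to 0.262 for the other 4 rows. At this unit 12.5% of all 72 rows passed. With numbers 1, 4 and 7 alone, Gapdh did not pass in either panel (share 6.28% and 15.8%), while Hprt1 (41.1% and 48.3%) and Actb (50.2%) did, and 61.1% of all rows passed. This choice of numbers leaves out the last run of LGXSM-6 and of LGXSM-33, numbers 10 to 12, which the means of runs of 3 keep. The 2 alternatives therefore do not cover the same runs.

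Which strains differed was tested for all 28 pairs of strains by exact permutation of the assay replicates, not of runs. Of 28 pairs, 13 passed for Gapdh, 15 for Hprt1 and 15 for Actb in the first panel and 11 for Gapdh and 13 for Hprt1 in the second, with p adjusted over all rows and pairs, beside 45.8% of all such contrasts. Signals of the strains did not overlap in 3, 3 and 6 pairs in the first panel and in 1 and 1 in the second, beside 10.3% of all contrasts. Almost no strains next to each other in the order of means could be parted. In the first panel these were LGXSM-5 over LG/J for Gapdh and LGXSM-33 over SM/J for Actb, and no neighbours passed for Hprt1 or in the second panel (before adjustment, 1 of 7 for Hprt1 in each panel and 0 of 7 for Gapdh in the second). The non-healers C57BL6/J and LGXSM-33 differed in Gapdh but not detectably in Hprt1 or Actb over assay replicates. Gapdh was 2.68-fold lower in C57BL6/J in the first panel and 2.93-fold lower in the second (exact permutation test, adjusted p = 1.16e-04 in each), while in the first panel Hprt1 was 1.24-fold lower there (adjusted p = 0.460, exact permutation test) and Actb 1.19-fold higher (adjusted p = 0.528, exact permutation test).

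Over the means of runs of 3, limma called 1 pair of strains among all pairs and rows of the reference genes, Hprt1 of SM/J under LGXSM-6 in the second panel (adjusted p = 0.0350). That call was lost without the low run of SM/J, numbers 4 to 6 (limma, adjusted p = 0.132), where the difference was 3.23-fold in place of 5.72-fold and 2.13% of all contrasts passed. Of the 15 pairs left in the first panel, 0 passed for Gapdh, Hprt1 and Actb (5, 2 and 3 before adjustment), where 5, 6 and 5 had passed over assay replicates. Of 28 pairs in the second, 0 passed for Gapdh and 1 for Hprt1 (3 and 7 before adjustment), beside 4.13% of all such contrasts. The lower Gapdh of C57BL6/J against LGXSM-33 had an adjusted p of 0.0558 in the first panel and 0.150 in the second at this unit (limma), so it did not pass.

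The difference of 2 log10 signals within an assay replicate takes out what both share equally. It takes out the amount of homogenate only where both signals follow it alike, which was not tested. In the low numbers of SM/J, Gapdh was lower by 9.15-fold, Hprt1 by 5.98-fold and Actb by 5.61-fold in the first panel. In the second panel Gapdh was lower there by 9.76-fold and Hprt1 by 5.53-fold. Gapdh minus Hprt1 in the first panel had strain means of 1.99 ± 0.05 (SD, n = 8) in LG/J, 1.88 ± 0.14 (SD, n = 9) in MRL/MpJ and 1.71 ± 0.09 (SD, n = 12) in LGXSM-6. In the non-healers they were 2.19 ± 0.11 (SD, n = 8) in SM/J, 1.83 ± 0.03 (SD, n = 9) in C57BL6/J and 2.16 ± 0.15 (SD, n = 12) in LGXSM-33, and in the intermediate healers 1.93 ± 0.10 (SD, n = 9) in LGXSM-5 and 1.86 ± 0.23 (SD, n = 9) in LGXSM-35. SM/J and LGXSM-33 thus had the most Gapdh signal per Hprt1 signal and LGXSM-6 the least, a span of 3.02-fold. SM/J did not overlap LG/J, C57BL6/J, MRL/MpJ or LGXSM-6.

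In the second panel, SM/J and LGXSM-33 were again the high strains and LGXSM-6 and C57BL6/J the low ones for Gapdh minus Hprt1. Its means were 1.69 ± 0.11 (SD, n = 12) in LGXSM-33, 1.64 ± 0.14 (SD, n = 9) in SM/J, 1.41 ± 0.03 (SD, n = 9) in LG/J, 1.38 ± 0.10 (SD, n = 9) in LGXSM-5, 1.34 ± 0.21 (SD, n = 9) in LGXSM-35, 1.34 ± 0.19 (SD, n = 9) in MRL/MpJ, 1.26 ± 0.04 (SD, n = 9) in C57BL6/J and 1.25 ± 0.06 (SD, n = 12) in LGXSM-6. The span was 2.71-fold, and LGXSM-33 overlapped none of LG/J, C57BL6/J, MRL/MpJ, LGXSM-5 and LGXSM-6. LGXSM-6 and LGXSM-33, lines from the same cross with opposite healing labels, differed 2.80-fold in the first panel and 2.71-fold in the second (permutation test over assay replicates, adjusted p = 1.83e-04 in each). Their 4 runs each did not overlap in either panel, as in 25.7% of all pairs of mRNAs, and the exact permutation test over runs gave p = 0.0286 in each, the smallest that 4 against 4 allow, and an adjusted p of 0.111, where 0% of all pairs passed. In limma over the runs of 6 strains in the first panel, without LG/J and SM/J, and of all 8 in the second, the difference passed in both (adjusted p = 0.0145 and 0.00786).

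Actb minus Gapdh spread the strains farthest. Its means were -0.04 ± 0.09 (SD, n = 9) in C57BL6/J, -0.05 ± 0.06 (SD, n = 12) in LGXSM-6, -0.21 ± 0.14 (SD, n = 9) in MRL/MpJ and -0.27 ± 0.20 (SD, n = 9) in LGXSM-35. They were -0.30 ± 0.03 (SD, n = 8) in LG/J, -0.33 ± 0.10 (SD, n = 9) in LGXSM-5, -0.55 ± 0.16 (SD, n = 12) in LGXSM-33 and -0.62 ± 0.11 (SD, n = 8) in SM/J. Actb gave nearly as much signal as Gapdh in C57BL6/J and LGXSM-6, 0.907 and 0.881 of it, and 0.242 of it in SM/J, a span of 3.75-fold.

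Actb minus Hprt1 was the most even of the 3 differences. Its strain means ran from 1.58 ± 0.05 (SD, n = 8) in SM/J to 1.78 ± 0.10 (SD, n = 9) in C57BL6/J, with 1.60 ± 0.06 (SD, n = 9) in LGXSM-35, 1.60 ± 0.04 (SD, n = 9) in LGXSM-5, 1.61 ± 0.03 (SD, n = 12) in LGXSM-33, 1.66 ± 0.09 (SD, n = 12) in LGXSM-6, 1.67 ± 0.05 (SD, n = 9) in MRL/MpJ and 1.69 ± 0.03 (SD, n = 8) in LG/J. The span was 1.61-fold. The SD of its strain means, 0.0669, was at place 37 from the lowest of the 630 pairs of mRNAs of the first panel. Gapdh minus Hprt1 (0.165) and Actb minus Gapdh (0.206) were at places 328 and 477 of 630, with a median over all pairs of 0.159, and Gapdh minus Hprt1 in the second panel (0.164) was at place 438 with a median of 0.135.

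**Figure D3:**
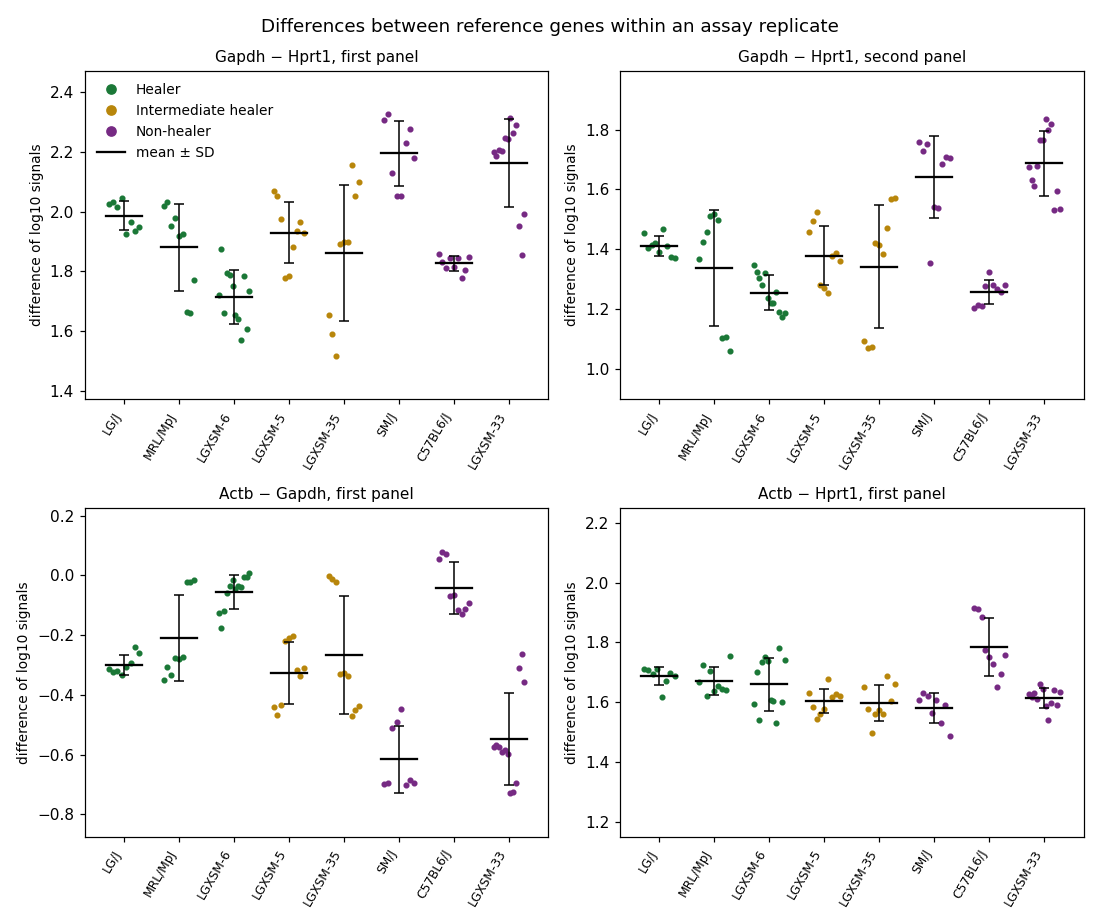
Difference of log10 signals of a pair of reference genes within each assay replicate, by strain, on axes of equal height, with strain mean and SD in black. SM/J and LGXSM-33 lie high for Gapdh − Hprt1 in both panels and low for Actb − Gapdh, while Actb − Hprt1 spans the 8 strains 1.61-fold.

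The share of variance between strains was higher for Gapdh minus Hprt1 and for Actb minus Gapdh than for either gene of the pair alone. It was 63.1% ± 16 for Gapdh minus Hprt1 in the first panel and 64.8% ± 18.3 in the second, 74.1% ± 11.1 for Actb minus Gapdh and 50.2% ± 21.9 for Actb minus Hprt1 (jackknife SE over 8 strains). Actb minus Hprt1 lay under Actb and Hprt1 alone over assay replicates but above both over the means of runs of 3, there without LG/J and SM/J, where it was 51.3% against 27.0% and 24.3%, and it fell to 29.7% without C57BL6/J. The difference between these shares was not tested. All 4 passed the permutation test (p adjusted over 1260 pairs of mRNAs = 1.54e-05), as did 96% of all pairs, and the median share over all pairs was 44.4% in the first panel and 45.7% in the second.

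Over the means of runs of 3, the differences kept more of the call than the levels. Actb minus Gapdh (60.5%, permutation test, adjusted p = 0.0244), Actb minus Hprt1 (51.3%, permutation test, adjusted p = 0.0392) and Gapdh minus Hprt1 in the second panel (56.3%, permutation test, adjusted p = 0.0198) passed. Gapdh minus Hprt1 in the first panel, there without LG/J and SM/J, had a share of 48.3% and an adjusted p of 0.0601 in the permutation test. At this unit 26.9% of all pairs of mRNAs passed, against 95.3% over all numbers of the same strains. With numbers 1, 4 and 7 alone, Actb minus Hprt1 had 42.1% and an adjusted p of 0.0599 (permutation test), the other 3 differences passed, and 30.7% of all pairs did.

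**Figure D4:**
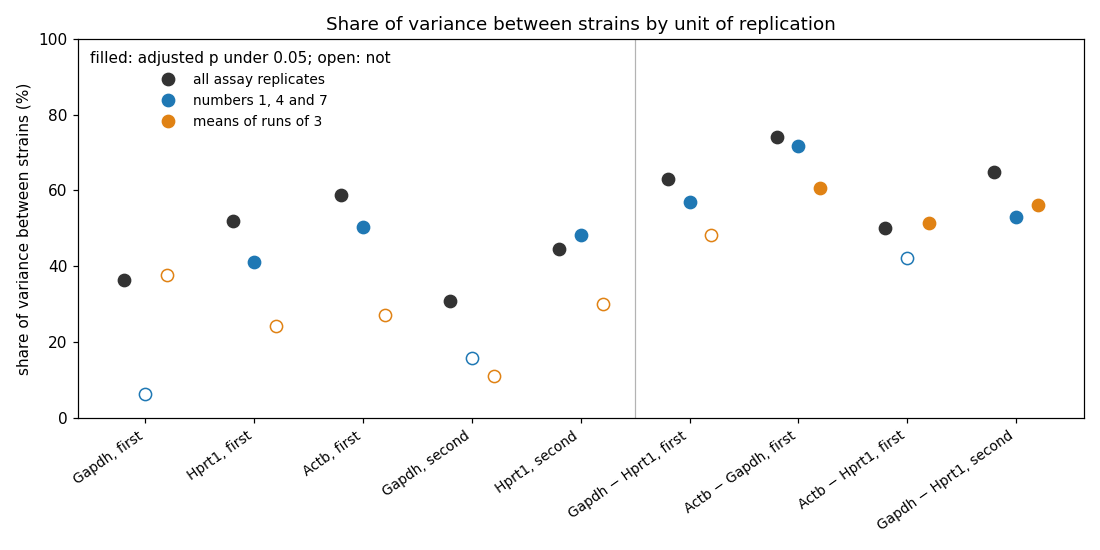
Share of variance between strains in percent for the 5 reference rows (left of the line) and the 4 differences (right), over all assay replicates (black), over numbers 1, 4 and 7 (blue) and over means of runs of 3 (orange), filled where the adjusted p of the permutation test was under 0.05. All 5 rows are open at runs of 3, and 3 of 4 differences are filled there.

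Among the 28 pairs of strains, over assay replicates, 18 passed for Gapdh minus Hprt1, 20 for Actb minus Gapdh and 15 for Actb minus Hprt1 in the first panel and 16 for Gapdh minus Hprt1 in the second, beside 44.4% of all contrasts of all pairs of mRNAs (exact permutation test, adjusted over all of them). Strains did not overlap in 6, 10, 1 and 9 of the 28, beside 11.7% of all. Neighbours in the order that could be parted were LGXSM-33 over LG/J and C57BL6/J over LGXSM-6 for Gapdh minus Hprt1 in the first panel, and SM/J over LG/J in the second. For Actb minus Gapdh they were LGXSM-6 over MRL/MpJ and LGXSM-5 over LGXSM-33, and for Actb minus Hprt1 C57BL6/J over LG/J. The parental strains LG/J and SM/J differed 1.62-fold in Gapdh minus Hprt1 in the first panel with no overlap (exact permutation test, adjusted p = 9.08e-04) and 1.70-fold in the second (exact permutation test, adjusted p = 0.00223). Over the means of runs of 3, limma called 1 of 15 pairs for Gapdh minus Hprt1, 2 for Actb minus Gapdh and 0 for Actb minus Hprt1 in the first panel (9, 11 and 8 over assay replicates) and 6 of 28 for Gapdh minus Hprt1 in the second, beside 7.75% of all contrasts. Before adjustment these were 4, 6, 3 and 12. The pairs called in the first panel were LGXSM-6 and LGXSM-33 for both differences and C57BL6/J and LGXSM-33 for Actb minus Gapdh, and each of the 6 in the second held LGXSM-33 or SM/J. Without the low run of SM/J there were 9 in the second panel, beside 8.91% of all contrasts. LG/J and SM/J did not pass in the second panel at this unit (limma, adjusted p = 0.206), and the first lacked both.

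The runs of 3 showed that the differences also moved inside some strains. In LGXSM-35 of the second panel, the mean of Gapdh minus Hprt1 was 1.08 in numbers 1 to 3, 1.41 in 4 to 6 and 1.54 in 7 to 9, and in the first panel the same numbers gave 1.59, 1.90 and 2.10. In MRL/MpJ numbers 7 to 9 gave 1.09 against 1.42 and 1.51 in the second panel and 1.70 against 2.00 and 1.94 in the first. In LGXSM-33 numbers 10 to 12 gave 1.55 in the second panel, under its other runs at 1.64, 1.74 and 1.82, and 1.93 in the first, under 2.20, 2.23 and 2.29. In SM/J, the low numbers had less Gapdh per Hprt1 than its other numbers, by 1.53-fold in the first panel and 1.76-fold in the second, and 1.63-fold more Actb per Gapdh. Without them the span of Gapdh minus Hprt1 over the strains was 3.54-fold in the first panel and 2.94-fold in the second, with SM/J in place of LGXSM-33 the highest there, and that of Actb minus Gapdh was 4.50-fold. C57BL6/J held 1.21 to 1.29 in the second panel and 1.81 to 1.84 in the first for Gapdh minus Hprt1, but its runs gave 1.90, 1.75 and 1.70 for Actb minus Hprt1 and 0.07, -0.08 and -0.11 for Actb minus Gapdh. Actb minus Hprt1 was steadier from run to run, with an SD of 0.0581 between runs of a strain against 0.146 for Gapdh minus Hprt1 and 0.147 for Actb minus Gapdh in the first panel.

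Gapdh and Hprt1 were read in both panels, so the readings of the panels can be compared. The strain means of Gapdh in the panels had r = 0.989 (p = 2.48e-05) and rho = 1 (p = 4.96e-05), those of Hprt1 r = 0.997 (p = 9.92e-05) and rho = 0.952 (p = 0.00114), each by an exact permutation test over the orders of 8 strains. Gapdh minus Hprt1 had r = 0.966 (p = 1.49e-04) and rho = 0.952 (p = 0.00114, exact permutation tests), and the p-values of these 3 relations are given without adjustment. Leaving out, for each measure, the 2 strains farthest from its median gave r of 0.983, 0.987 and 0.921 (exact permutation p = 0.00139, 0.00556 and 0.00833). The labels do not say whether both panels were run on the same homogenates, so their agreement cannot be read as a repeat in other mice. Within strains, signals of the same number had r = 0.945 for Gapdh, 0.901 for Hprt1 and 0.827 for their difference over 60 assay replicates of 6 strains, which are not independent. Taken strain by strain, r of the difference ran from -0.143 in C57BL6/J to 0.951.

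The panels differed in level, and not by the same factor for each gene. Gapdh gave from 3.70-fold (SM/J) to 4.33-fold (LGXSM-35) more signal in the first panel, with a mean of 4.09-fold, while Hprt1 gave 1.03-fold (SM/J) to 1.37-fold (LGXSM-6) more, with a mean of 1.20-fold. Gapdh minus Hprt1 was therefore higher in the first panel by 0.461 to 0.576 on the log10 scale in all 8 strains, so this difference is read within a panel only.

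**Figure D5:**
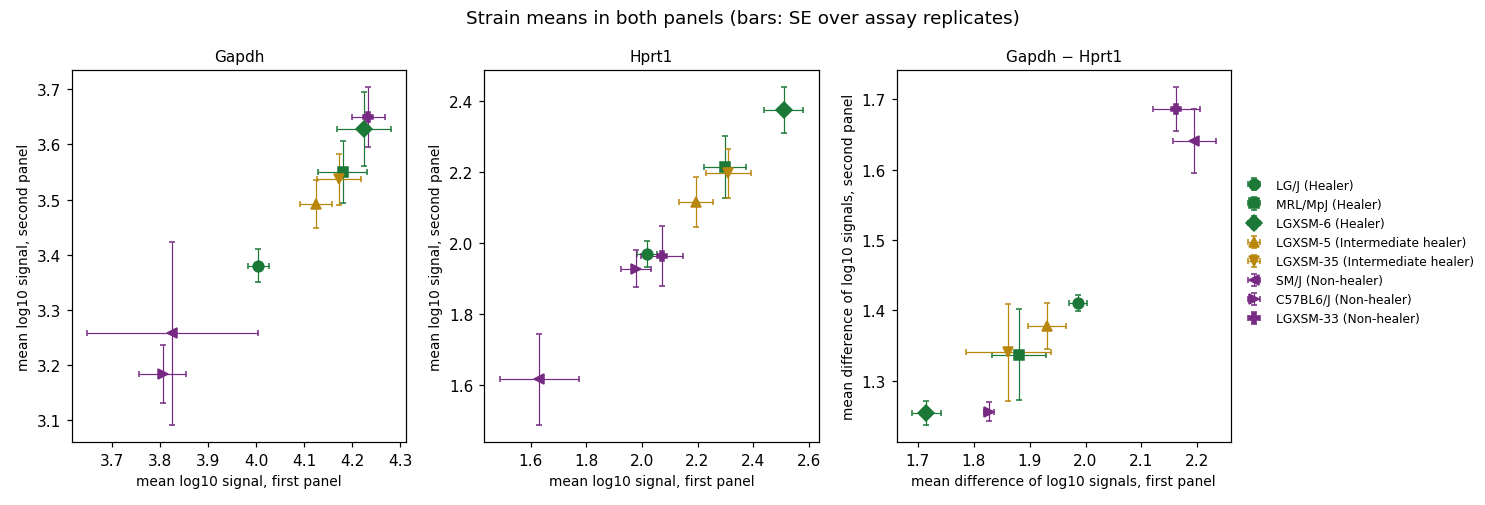
Strain means of Gapdh, Hprt1 and Gapdh − Hprt1 in the first panel (x axis) against the second (y axis), log10 units, with SE over assay replicates as bars and a symbol for each strain. The order of strains is the same in both panels for Gapdh, and SM/J and LGXSM-33 stand apart from the other 6 strains for Gapdh − Hprt1.

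Across strains the reference genes did not follow each other equally. Over the 8 strain means, Actb and Hprt1 had r = 0.971 (exact permutation test, adjusted p = 0.00476 over 1260 pairs of mRNAs) and rho = 0.881, and r = 0.871 without SM/J and LGXSM-6, the 2 strains farthest from the median (exact permutation p = 0.0347). Gapdh and Hprt1 had r = 0.801 in the first panel (adjusted p = 0.0283, exact permutation test) and 0.704 in the second (adjusted p = 0.0833, exact permutation test), with rho of 0.714 and 0.619. Without SM/J and C57BL6/J, the 2 strains farthest from the median, these were 0.570 and 0.392 (exact permutation p = 0.243 and 0.436). The first panel's call was also lost without any 1 strain other than C57BL6/J or LGXSM-33. Actb and Gapdh had r = 0.676 and rho = 0.405 (adjusted p of r = 0.0975, exact permutation test), and r = 0.298 without SM/J and LGXSM-6. Of all 1260 pairs, 47.9% passed this test. Within strains, over assay replicates that are not independent, r was 0.969 for Actb and Hprt1, 0.853 and 0.869 for Gapdh and Hprt1 in the first and second panels, and 0.841 for Actb and Gapdh.

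Without the low signals of SM/J, Actb and Hprt1 kept r = 0.943 (exact permutation test, adjusted p = 0.0108), while Gapdh and Hprt1 had r = 0.495 and 0.391 and Actb and Gapdh r = 0.212, none of which passed (exact permutation tests, adjusted p = 0.327, 0.449 and 0.646).

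The targets whose strain means were most like each reference gene were named by the highest r over 8 strains, as a description. For Gapdh in the first panel these were Epas1 (r = 0.950), a hypoxia-inducible transcription factor, and Tfap2a (r = 0.946), a transcription factor whose median signal was 12. For Hprt1 they were the chemokine Cxcl12 (r = 0.990) and the NF-kappa-B subunit Nfkb1 (r = 0.985), and for Actb Stat6 (r = 0.989), a transcription factor of cytokine signaling, and again Cxcl12 (r = 0.976). In the second panel Gapdh was followed by Axin2 (r = 0.965), a feedback inhibitor of Wnt signaling, and the autophagy protein gene Map1lc3a (r = 0.948), and Hprt1 by the replication clamp Pcna (r = 0.980) and the TGF-beta mediator Smad2 (r = 0.979). The median r over all targets was 0.789 for Gapdh, 0.870 for Hprt1 and 0.812 for Actb in the first panel and 0.742 and 0.847 in the second. In the first panel r was above 0 for 33 of 33 targets with each reference gene, and in the second for 33 of 34 with Gapdh and 32 of 34 with Hprt1.

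Healing capacity was compared over strain means, 3 healer against 3 non-healer strains, where 20 arrangements allow no p under 0.1. The healers had higher means in all 5 rows, as in 95.8% of all 72 rows. The difference was 0.181 for Gapdh (1.52-fold, exact permutation p = 0.4), 0.382 for Hprt1 (2.41-fold, exact permutation p = 0.2) and 0.395 for Actb (2.49-fold, exact permutation p = 0.2) in the first panel. In the second it was 0.156 for Gapdh (1.43-fold, exact permutation p = 0.4) and 0.350 for Hprt1 (2.24-fold, exact permutation p = 0.1). Hprt1 in the second panel was the row whose healer and non-healer means did not overlap, and 19.4% of all rows did not. There LG/J, the lowest healer (1.969), stood only 1.01-fold over LGXSM-33, the highest non-healer (1.963). In the first panel LG/J (2.02) lay under LGXSM-33 (2.07) for Hprt1. Without the low signals of SM/J the difference of Gapdh was 0.0612 in the first panel and 0.0459 in the second (exact permutation p = 0.9 in each).

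Against each other, the reference genes gave healers a lower Gapdh minus Hprt1 by 0.201 and 0.194 (exact permutation p = 0.3 in each panel), a higher Actb minus Gapdh by 0.214 (exact permutation p = 0.4) and an Actb minus Hprt1 that differed by 0.0132 (exact permutation p = 1). C57BL6/J is the strain that keeps these from parting by label: its Gapdh minus Hprt1 of 1.83 and 1.26 lay with the healers, and the other non-healers SM/J and LGXSM-33 lay above every healer in both panels. Of all pairs of mRNAs, 22.4% had healer and non-healer means that did not overlap, and none of the 4 differences did.

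The choice of reference gene carries these differences into every target. The fold of any target in a strain against C57BL6/J changes by the strain's own difference between the reference genes. Reading a target against Hprt1 in place of Gapdh changed it by 2.33-fold in SM/J and 2.17-fold in LGXSM-33 in the first panel and by 2.43-fold and 2.70-fold in the second, but by 1.13-fold and 1.21-fold in MRL/MpJ. Reading it against Gapdh in place of Actb changed it by 3.75-fold in SM/J, 3.20-fold in LGXSM-33 and 1.03-fold in LGXSM-6, and Actb against Hprt1 by 1.25-fold to 1.61-fold in the 7 strains. Over the 67 targets, strain means taken as log10 target minus Gapdh and as log10 target minus Hprt1 had a median r of 0.344, with 20 targets under 0. Over the 33 targets of the first panel the median r was 0.115 between Gapdh and Actb, with 13 under 0, and 0.931 between Hprt1 and Actb, with 0 under 0. Both readings share the target, and the points are the same 8 strains measured in the same assays.

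The authors did not subtract a reference gene but took residuals of every target from a regression on them. Computed again from the signals, a regression on all of them took up a median of 61.1% of a target's variance in the first panel and 80.8% in the second. Alone, Gapdh took up 48.8% and 54.3%, Hprt1 53.3% and 73.9%, and Actb 45.1%. In the joint fit the median slope was 0.490 for Hprt1, 0.130 for Gapdh and 0.0260 for Actb in the first panel, and 0.494 for Hprt1 and 0.0956 for Gapdh in the second. Slopes were negative for 15 of 33 targets on Actb and 10 on Gapdh but for 3 on Hprt1 in the first panel. The other reference genes of the panel shared 96.1% of the variance of Hprt1, 94.7% of that of Actb and 70.0% of that of Gapdh. In the second panel Gapdh and Hprt1 shared 61.8%.

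Targets with variance between strains were counted under each way of normalizing. In the deposited residuals 54 of 67 targets passed the permutation test (80.6%, adjusted over the 67), and 53 (79.1%) passed when the residuals on all reference genes were computed again. Residuals on Gapdh alone gave 62 (92.5%), residuals on Hprt1 alone 59 (88.1%) and no normalization 64 (95.5%), and 54, 53 and 54 of these were among the 54 of the deposited residuals. Differences to Gapdh gave 58 (86.6%), of which 46 were shared, differences to the mean of the reference genes gave 62 (92.5%), of which 49 were shared, and differences to Hprt1 gave 67 (100%). On the first panel, Actb alone gave 33 of 33 (100%) as regressor and as subtracted reference, where the deposited residuals gave 31. The median share of variance between strains was 29.6% in the deposited residuals, 46.3% on Gapdh, 38.6% on Hprt1 and 49.4% without normalization. With slopes taken within strains, so that the differences of the reference genes between strains did not enter the slope, 64 (95.5%) passed, with a median share of 51.7%. With numbers 1, 4 and 7 alone, 5 of 67 passed in the deposited residuals, and over the means of runs of 3, without LG/J and SM/J in the first panel, 9 did (13.4%; 20 before adjustment), against 50 over all numbers of the same strains.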

How the data were processed

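Signals of a QuantiGene Plex assay (branched DNA on coded beads) were measured in knee joint homogenates of 8 mouse strains. The authors deposited log10 signals of each assay replicate (signals in half-unit steps) and normalized values. By the methods of the study the latter are residuals of a multiple regression of each target's raw values on the reference genes, with no log10 scale named. A background signal was subtracted per the methods of the study, and the files do not say whether before the deposited values. Strain averages and fold values of the authors were not used, and 0 columns were left out. No filter on signal was applied. Recomputed residuals equalled the deposited ones within 0.001 in 75 of 76 assay replicates of the first panel; the other, number 9 of LGXSM-35, differed by up to 0.345. Of the 78 assay replicates of the second panel, 0 were equal within 0.001 over all targets, with a median of the largest difference of 0.0214 and at most 0.0344. Signal minus deposited value in that panel was a linear combination of Gapdh and Hprt1 within 0.001 for 34 of 34 targets, with coefficients other than those of least squares over these assay replicates, and r to the recomputed residuals was at least 0.998.

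The share of variance between strains is the between-strain component over the sum of between- and within-strain components of a one-way random effects model. It was tested by 100000 one-sided resamples of assay replicates between strains (1e-05 is the smallest p they can give), and by 20000 under alternatives. Pairs of strains were compared by two-sided exact permutation (100000 resamples for LGXSM-6 against LGXSM-33), healing capacity over strain means, and correlations over 40320 orders of the strains. Adjustment was by Benjamini-Hochberg over all 72 rows, 1260 pairs of rows, 2016 and 35280 strain contrasts, or 67 targets, at a threshold of 0.05. Targets named are the 2 with the highest r to each reference row. The members, lists and tests were chosen with earlier results of these data known, and 1 mRNA is not reported. Strain variance and strain pairs were also tested with limma 3.58.1 in R 4.3.3; the rest used numpy 2.4.6, pandas 2.3.3 and scipy 1.17.1 under Python 3.11.15. The tests were checked on simulated data with independent assay replicates. Those data held no runs of 3, so the check does not show how often tests over assay replicates call falsely where such runs exist. Assay replicate numbers did not pair strains: deviations at equal numbers had a median correlation between strains from -0.243 to 0.0149 over the 5 rows, with 10 to 13 of 28 strain pairs over 0.1. The files name no genome build, and no coordinates or sequences are given. Alternatives were linear signals, subsets of numbers and strains, rank statistics, limma, a replicate block, medians and, added after the data were seen, runs of 3 (strain pairs also with limma over runs, with and without the low run of SM/J), the first panel without LG/J and SM/J, and SM/J without its low signals.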

Additional observations from a re-analysis of the deposited data

Results flagged for a closer look

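Of 63 groups of 8 or 9 values searched for a value far from the rest (54 of them the assay replicates of 1 strain and 9 of them strain means), 1 held such a value, where chance gives about 1 in 20. Number 5 of LG/J in the first panel had an Actb minus Hprt1 of 1.62, and the nearest of the other 7 was 1.67, a gap of 0.564 of the whole range. The low signals of SM/J lie in threes, which a search for a single far value does not find.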

How the results depend on the processing

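Leaving out each replicate number or each strain in turn, using linear signals, ranks, limma, numbers 1 to 8, the 6 strains of the cross, the replicate block, SM/J without its low signals or LGXSM-35 without number 9, all 9 shares of variance of the reference rows and their differences kept their side of the threshold. The replicate block (labels permuted within numbers 1 to 8) gave shares from 35.5% for Gapdh in the second panel to 79.1% for Actb minus Gapdh, and under limma with the replicate block 10 to 17 of 28 strain pairs passed for the 5 rows and 12 to 19 for the differences. The numbers do not pair strains, so this says nothing of a weaker effect.

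Numbers 1, 4 and 7 ended the call of Gapdh (6.28% in the first panel and 15.8% in the second) and of Actb minus Hprt1 (42.1%), and moved the rows called from 69 to 44 of 72, the pairs of mRNAs from 1209 to 387 of 1260 and the targets called in the deposited residuals from 54 to 5. This setting lacks numbers 10 to 12 of LGXSM-6 and LGXSM-33, which the means of runs of 3 keep. Means of runs of 3, with 20 units in the first panel and 26 in the second, ended the call of Gapdh (37.8%), Hprt1 (24.3%) and Actb (27.0%) in the first panel, of Gapdh (10.9%) and Hprt1 (29.9%) in the second and of Gapdh minus Hprt1 in the first (48.3%), and left 9 rows, 339 pairs of mRNAs and 9 targets in the deposited residuals called. In the first panel these runs also lack LG/J and SM/J. Over all numbers of the same strains, 69 rows, 1201 pairs of mRNAs and 50 targets were called and all 9 shares passed. The cause of the drop was not tested. In limma over runs of 3, strain pairs called were 0 for Gapdh, Hprt1 and Actb in the first panel, 0 for Gapdh and 1 for Hprt1 in the second, and 1, 2, 0 and 6 for Gapdh minus Hprt1, Actb minus Gapdh and Actb minus Hprt1 in the first panel and Gapdh minus Hprt1 in the second. Without the low run of SM/J the second panel had 0 for Gapdh and Hprt1 and 9 for Gapdh minus Hprt1, and the first panel, which holds no SM/J run, kept its counts of 0, 1 and 2. The difference of medians called 6 of 28 strain pairs for Hprt1 in the second panel in place of 13, and the cause was not tested.

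For the healing contrast, Actb minus Hprt1 changed sign without SM/J (-0.0271) and without LGXSM-33 (-0.00902), with 0.0758 the highest value over the strains left out in turn. The reference rows stayed higher in healers but moved in size. In the first panel they ran from 0.106 to 0.321 for Gapdh, 0.251 to 0.511 for Hprt1 and 0.224 to 0.517 for Actb. In the second they ran from 0.0659 to 0.299 for Gapdh and 0.240 to 0.458 for Hprt1. The relation of Gapdh and Hprt1 in the first panel lost its call with medians (r = 0.536), with Spearman's rho (0.714), in the 6 strains of the cross (0.859), without the low signals of SM/J (0.495), without SM/J and C57BL6/J (0.570) and without each strain but C57BL6/J and LGXSM-33 (0.686 to 0.903 over all). Actb and Gapdh passed without LGXSM-33 (0.790; 0.440 to 0.846 over all strains left out), as did Gapdh and Hprt1 in the second panel (0.872; 0.593 to 0.872). The agreement between panels and the relation of Actb and Hprt1 kept their calls under every alternative run. Without bead counts or a background value for each signal, the precision of low signals, such as Hprt1 at 10 to 22 in SM/J, is unknown.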
